A study of Homo sapiens with 4 samples.

Results

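TAF9B and 9 other subunits of the general transcription factor TFIID were followed in human HT1080 fibrosarcoma cells kept for 36 h under hypoxia or control conditions. The members were TAF9B, TAF2, TAF4, TAF5, TAF6, TAF7, TAF10, TAF11, TAF12 and TAF13, which are 10 of the 18417 genes with a value in the series. A gene was represented by the probe set whose annotation names that gene alone and, where there were several, by the brightest of them, on average over all 4 arrays. TAF9B was selected on its measured fall on these arrays and the other subunits were set beside it, so the values below are a description and carry no test.

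Hypoxic cells were kept at 1% oxygen and control cells at 21% oxygen, both as cultures of the established line HT1080 in medium with little serum. From each condition the study took total RNA and ER-RNA, the RNA extracted from a biochemically isolated endoplasmic reticulum (ER) fraction. For RNA from subcellular fractions, the ER among them, the paper reports that cells were first treated with cycloheximide. The same is not stated for total RNA. Each of the 4 arrays carried RNA pooled from 5 experiments, so every fraction and condition is 1 array, the spread between experiments is not measured and no p-value can be given. In such pools fewer cells that use a gene and less of its RNA per cell cannot be told apart.

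TFIID is the complex that recognises core promoters and begins the assembly of RNA polymerase II at the start of a gene. It is built of the TATA-binding protein TBP and a set of TBP-associated factors (TAFs), many of which meet through histone folds in fixed pairs, such as TAF6 with TAF9 or its close paralog TAF9B, TAF4 with TAF12, and TAF11 with TAF13. Several TAFs are shared with the histone acetyltransferase complex SAGA, and in mice TAF9B has been linked to gene programmes of differentiated neurons.

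The TAF9B gene lies on the minus strand of chromosome X, at chrX:78129748-78139650 in GRCh38.p14. The 250 bases before a RefSeq start site are shown for each of 3 members. TAF9B and TAF5 were the only members called lower in hypoxia. TAF12, which was not called, is shown because its window, like that of TAF9B, holds the letters ACGTG. Whether these letters bear on any change was not tested. Capitals mark ACGTG, a form of the core letters bound by hypoxia-inducible factors, and the GC box GGGCGG. Each was sought on either strand (CACGT and CCGCCC on the other). The other form of the core, GCGTG (or CACGC), was not sought or marked, so a window without ACGTG may hold it. The windows are chrX:78139651-78139900 (minus strand), chr10:103367726-103367975 (plus strand) and chr1:28643068-28643317 (minus strand).
TAF9B: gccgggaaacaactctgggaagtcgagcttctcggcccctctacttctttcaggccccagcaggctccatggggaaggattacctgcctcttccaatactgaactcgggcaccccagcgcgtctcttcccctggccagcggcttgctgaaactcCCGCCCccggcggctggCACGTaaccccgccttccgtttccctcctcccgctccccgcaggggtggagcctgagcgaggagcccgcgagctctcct
TAF5: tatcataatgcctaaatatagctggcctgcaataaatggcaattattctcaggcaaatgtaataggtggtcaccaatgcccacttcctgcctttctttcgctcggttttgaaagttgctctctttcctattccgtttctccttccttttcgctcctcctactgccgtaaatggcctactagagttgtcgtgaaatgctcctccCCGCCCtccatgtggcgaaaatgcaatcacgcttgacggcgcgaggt
TAF12: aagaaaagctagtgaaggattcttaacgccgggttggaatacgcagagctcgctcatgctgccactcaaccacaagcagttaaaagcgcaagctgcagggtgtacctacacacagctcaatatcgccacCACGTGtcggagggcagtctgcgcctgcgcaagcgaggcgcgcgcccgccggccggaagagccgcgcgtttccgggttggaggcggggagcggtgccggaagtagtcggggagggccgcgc
The TAF9B window holds ACGTG once, as CACGT starting 79 bases before the start site, and the GC box once. The TAF5 window holds no ACGTG and 1 GC box. In TAF12 the letters CACGTG, starting 121 bases before the start site, match ACGTG on both strands, and no GC box is present. The TAF12 window lies inside the RefSeq span of the gene, chr1:28602850-28648269, before an internal start site. The bases before the outer end of TAF12 were not examined.

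Windows were matched for 9 of the 10 members, all but TAF2, and numbered 12, since TAF6 and TAF11 have several start sites. ACGTG occurred in 3 of the 12 windows, those of TAF9B and TAF12 and 1 of TAF6, and in 18.5% of all 35116 RefSeq windows of this length. The GC box occurred in 6 of the 12 windows and in 42.6% of all windows, and the CCAAT box (CCAAT, or ATTGG) in 6 and in 32.0%. The ETS core CCGGAAG (or CTTCCGG) occurred in 2 of the 12 windows and in 8.52% of all. TATAAA (or TTTATA), the letters that TBP binds, occurred in 0 of the 12 windows and in 10.7% of all. Some windows of TAF6 and of TAF11 overlap, so a site in them can be counted more than once. By gene, ACGTG occurred in 3 of 9 members, the GC box in 6, the CCAAT box in 5, the ETS core in 2 and TATAAA in 0. No share by gene was taken over all genes, and the shares of windows above are not the measure for these counts. Like that of TAF12, the windows of TAF6 lie inside the span of the gene. These are matches of letters, not measured binding.

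Values were log2 RMA values. A gene was kept if 1 or both arrays of the fraction put it above the array's median (the 50% quantile). It was called where the fold change passed 1.4 and the log2 difference passed 3 times an SD, a ratio given below as the z-score. The SD was read from a curve of the SD of each pair's 2 values against their mean over all probe sets. It is smaller than the SD of a difference between 2 arrays, so a call ranks a change within this pair of arrays and carries no error rate. Pairs of folds or log2 fold changes are given for total RNA and then for ER-RNA. All 8 hypoxia markers examined, among them EGLN3 and BNIP3, were called higher in both fractions, with log2 fold changes between 1.37 and 1.92 in total RNA and between 1.06 and 1.72 in ER-RNA. Of 8 mesenchymal markers 7 lay above the array median on all 4 arrays and THY1 below it, while 4 of 5 epithelial markers and 3 of 5 endothelial or leukocyte markers lay below it on all 4.

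In hypoxia 2 of the 10 members were called lower in total RNA, TAF9B and TAF5, where 8.6% of the 11530 kept genes were called lower. In ER-RNA the same 2 of 10 were called lower, where 9.62% of 11876 kept genes were. TAF9B was chosen for its fall, so its call was settled by that choice. Of the other 9 members 1, TAF5, was called lower in each fraction, and this is the count to set beside those shares. None of the members was called higher in either fraction, against 2.7% of kept genes in total RNA and 1.43% in ER-RNA. By the fold threshold alone 4 members were lower in total RNA (TAF9B, TAF5, TAF6 and TAF13) beside 18.6% of kept genes, and 4 in ER-RNA (TAF9B, TAF5, TAF2 and TAF13) beside 21.4%. Without TAF9B these counts were 3 of 9 in each fraction. Values were below control for 8 of the 10 members in each fraction, with TAF4 and TAF7 the exceptions in both. The median log2 fold change of the 9 members other than TAF9B was -0.46 for total RNA and -0.29 for ER-RNA, where the medians of all kept genes were -0.06 and -0.04. In ER-RNA this median came to -0.13 after quantile normalization and -0.15 after a loess correction within the pair.

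**Figure D1:**
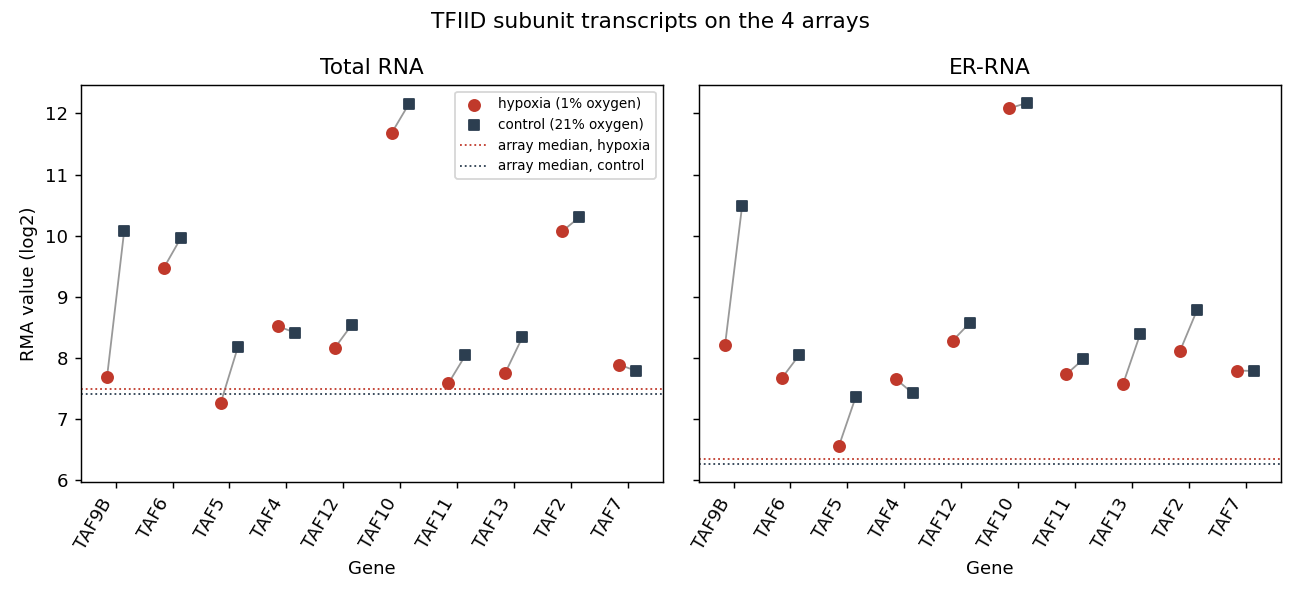
RMA values (log2) of the 10 members in total RNA (left panel) and ER-RNA (right panel), with circles for hypoxia, squares for control and dotted lines for the array medians; each point is 1 array. The TAF9B points lie far apart in both panels, at 7.69 and 10.07 in total RNA and 8.21 and 10.48 in ER-RNA, and the hypoxia point of TAF5 in total RNA is the only one below its array median.

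TAF9B, which forms a histone-fold pair with TAF6 in place of TAF9, had a log2 value of 7.69 in hypoxic total RNA, against 10.07 in control total RNA. In ER-RNA it had 8.21 in hypoxia, against 10.48 in control. The hypoxic level was thus 0.192 of control in total RNA (log2 fold change -2.38, z-score -9.14) and 0.206 of control in ER-RNA (log2 fold change -2.28, z-score -7.28). Among kept genes only 1, CCL2, had a lower log2 fold change in total RNA, and 6 had a lower one in ER-RNA. In hypoxic total RNA the TAF9B value stayed 0.21 above the array median, against 2.66 above it in control. A pair of probe sets names TAF9B alone, and they carry the same values on every array, so they were counted as 1 measurement.

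TAF6, the histone-fold partner of TAF9B and TAF9, had 9.48 in hypoxia and 9.97 in control in total RNA. Its ER-RNA values were 7.67 in hypoxia and 8.04 in control. The fold was 0.712 for total RNA and 0.773 for ER-RNA, neither of them called. TAF9 itself, which has the alternative place beside TAF6, is named on the arrays only by probe sets that also name AK6, so no value is given for it. Whether TAF9 moved with or against TAF9B could therefore not be read.

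TAF5, a scaffold subunit with WD40 repeats, had 7.27 in hypoxic total RNA and 8.18 in control total RNA. In ER-RNA it had 6.55 in hypoxia and 7.36 in control. The hypoxic level was 0.532 of control in total RNA (log2 fold change -0.91, z-score -4.30) and 0.568 of control in ER-RNA (log2 fold change -0.82, z-score -3.38). Larger falls were seen for 564 kept genes of total RNA and 1140 of ER-RNA. The call was less firm than that of TAF9B: it was lost in total RNA under a filter that asks for values over the median on both arrays, since the hypoxic value lay 0.22 below it, and lost in ER-RNA when the SD was taken from the scaled median absolute deviation of the differences. It was also lost in both fractions with a fold threshold of 2 or with a filter at the 75% quantile.

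TAF4, a large subunit that contacts activators, was among the members that did not fall. It had 8.52 in hypoxia and 8.41 in control in total RNA, and 7.65 in hypoxia and 7.42 in control in ER-RNA, with folds of 1.07 and 1.18. Its histone-fold partner TAF12, also a SAGA subunit, had 8.16 in hypoxia and 8.54 in control in total RNA, and 8.28 in hypoxia and 8.57 in control in ER-RNA. The folds of TAF12 were 0.768 and 0.818. The values of this pair thus lay on opposite sides of control in both fractions, and none of them was called.

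TAF10, shared by TFIID and SAGA and a histone-fold partner of TAF3 and TAF8, had 11.68 in hypoxia and 12.15 in control in total RNA. In ER-RNA its values were 12.08 in hypoxia and 12.17 in control. The fold was 0.721 for total RNA and 0.941 for ER-RNA, not called in either. Among the members it was the only value below control to change side under another normalization, in ER-RNA, to a log2 fold change of 0.03 after loess within the pair.

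TAF11 and TAF13, which pair with each other near TBP, both had lower values in hypoxia. TAF11 had 7.58 in hypoxia and 8.04 in control in total RNA, and 7.73 in hypoxia and 7.98 in control in ER-RNA, with folds of 0.727 and 0.841. TAF13 had 7.75 in hypoxia and 8.33 in control in total RNA, and 7.58 in hypoxia and 8.39 in control in ER-RNA. Its folds were 0.669 and 0.568, and its z-scores were -2.56 and -2.89, so that in ER-RNA it lay just outside the limit, with TAF5, at -3.38, just inside. With the median of each array subtracted first, TAF13 was called lower in ER-RNA.

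TAF2, which contacts the initiator element around the start site, had 10.07 in hypoxia and 10.30 in control in total RNA, a fold of 0.853. In ER-RNA it had 8.11 in hypoxia and 8.78 in control, a fold of 0.628 that passed the fold threshold but, with a z-score of -2.25, was not called. TAF7, which binds TAF1 and restrains its activity until initiation, had 7.89 in hypoxia and 7.78 in control in total RNA. Its ER-RNA values were 7.79 in hypoxia and 7.78 in control. The folds of TAF7 were 1.08 and 1.00, and the ER-RNA value turned to a log2 fold change of -0.08 with each array's median subtracted. With 1 array per condition, whether any member responded differently in the ER-RNA and total RNA fractions was not tested.

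**Figure D2:**
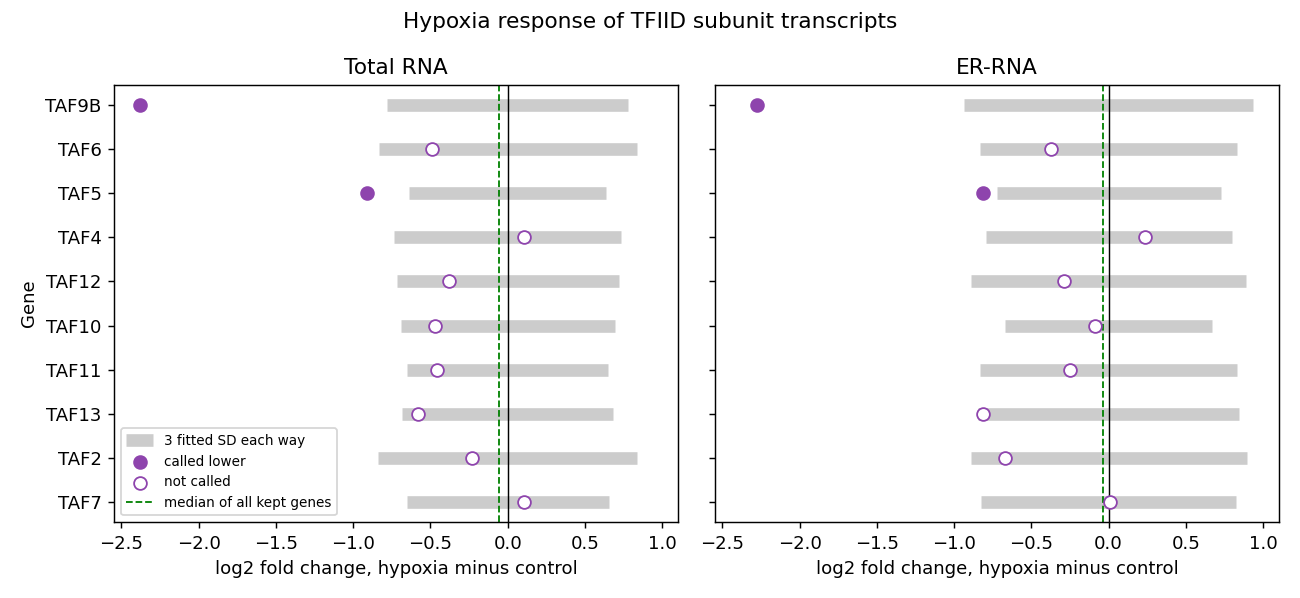
Log2 fold change, hypoxia minus control, of each member in total RNA (left panel) and ER-RNA (right panel); filled points were called lower, grey bars reach 3 fitted SDs each way and the dashed line is the median of all kept genes. TAF9B lies at -2.38 and -2.28, far outside its bar, TAF5 at -0.91 and -0.82 lies just outside, and the other 8 members lie within theirs.

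The subunits of TFIID outside the 10 members, with TAF1L, TAF4B, TAF7L and TAF15 as paralogs or relatives, gave 8 measured genes, of which 0 were called in either fraction, with 5 kept in total RNA and 6 kept in ER-RNA. TBP, the subunit that binds the TATA box, had log2 fold changes of -0.30 for total RNA and -0.60 for ER-RNA. TAF1, the largest subunit and the scaffold of the complex, had -0.07 and -0.19, and TAF3, which reads trimethylated histone H3, had -0.32 and -0.13. TAF8, a histone-fold partner of TAF10, had 0.03 and -0.27, and TAF15, an RNA-binding protein, had -0.10 and -0.55. TAF4B, the paralog of TAF4, had -0.36 and -0.44 and was kept in ER-RNA only. TAF1L and TAF7L, known for their use in testis, lay below the array median on all 4 arrays, with log2 fold changes of 0.00 and 0.03 in total RNA and 0.40 for both in ER-RNA. The median over those kept was -0.10 for total RNA (5 genes) and -0.36 for ER-RNA (6 genes), beside -0.47 and -0.33 for the 10 members and -0.06 and -0.04 over all kept genes.

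Beside TFIID, the general transcription factors gave 3 of 19 genes called lower in total RNA and 5 of 19 in ER-RNA, with medians of -0.40 and -0.51. The shares called lower among all kept genes were 8.6% for total RNA and 9.62% for ER-RNA. They are the measure for this count and for those of the lists that follow. No list was tested against them. GTF2H3 and GTF2E1, subunits of TFIIH and TFIIE, were called lower in both fractions, GTF2H3 with log2 fold changes of -1.15 and -1.20 and GTF2E1 with -0.75 and -0.83. BTAF1, which removes TBP from DNA, had 0.62 for total RNA and -0.12 for ER-RNA, and GTF2F1 of TFIIF was at -0.21 and 0.03. None of these falls was as large as that of TAF9B, which was chosen for its fall.

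Of the 12 subunits of RNA polymerase II, 0 were called lower in total RNA and 1, POLR2K, in ER-RNA, with medians of -0.47 and -0.49. The largest subunit POLR2A had the highest log2 fold changes, 0.08 and 0.06, and the lowest were those of POLR2F in total RNA (-0.69) and POLR2B in ER-RNA (-0.90). Mediator, the bridge between activators and the polymerase, gave 0 of 24 kept genes called lower in total RNA and 3 of 27 in ER-RNA, with medians of -0.18 and -0.22. MED20 was lowest in both, at -0.64 and -0.96, MED10 highest in total RNA at 0.72, and MED26 highest in ER-RNA at 0.14. The corresponding medians of the TFIID members were -0.47 and -0.33, so the polymerase subunits, of which only POLR2K was called, lay as far below 0.

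SAGA shares TAF9, TAF10 and TAF12 with TFIID and holds paralogs of its subunits, and the related ATAC complex was listed with it. Their list gave 0 genes called lower, of 26 kept in total RNA and 25 in ER-RNA. TAF9B (the paralog of TAF9), TAF10 and TAF12 were counted with the TFIID members and left out of that list. The 0 therefore does not cover TAF9B, which was called lower in both fractions (log2 fold changes -2.38 and -2.28). TAF5L and TAF6L, the SAGA paralogs of TAF5 and TAF6, had log2 fold changes of -0.28 and -0.12 in total RNA and -0.42 and -0.22 in ER-RNA. YEATS2, a reader of acetylated histones in ATAC, was called higher in total RNA (1.25) and had 0.66 in ER-RNA. The lowest values within the SAGA and ATAC list were those of WDR5 in total RNA (-0.67) and SUPT7L in ER-RNA (-0.75). The factors of polymerases I and III, some of which work with TBP, gave 0 of 8 kept genes called lower in total RNA and 1 of 9 in ER-RNA, TAF1A, at -1.24. In this list BDP1 was at 0.23 in total RNA and -0.15 in ER-RNA, BRF1 at -0.01 and 0.27, and RRN3 had the lowest kept value in total RNA, -0.31.

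**Figure D3:**
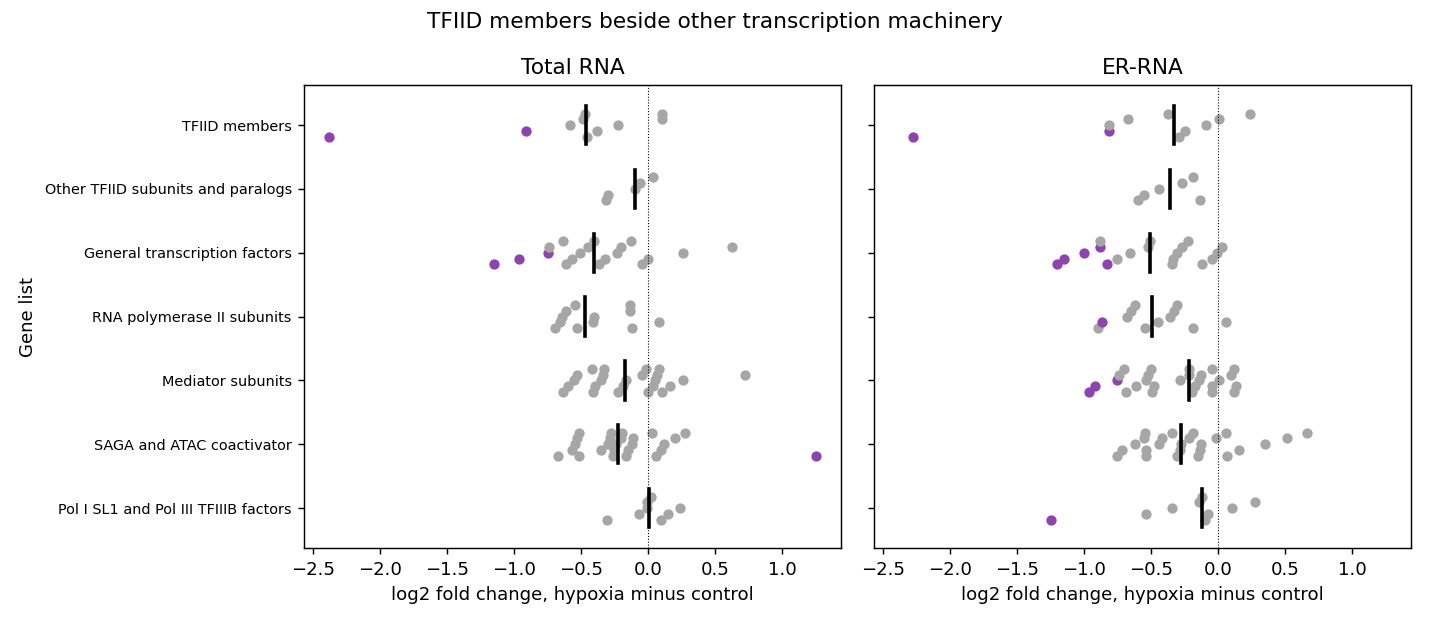
Log2 fold change, hypoxia minus control, of every kept gene of the TFIID members and of 6 other lists of transcription machinery, in total RNA (left panel) and ER-RNA (right panel); coloured points were called and the black bars are list medians. TAF9B, at -2.38 and -2.28, was chosen for its fall and lies to the left of all other points in both panels. TAF5, at -0.91 and -0.82, lies near the called general transcription factors.

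The genes whose 4 values ran most like those of TAF9B were found by the distance between profiles, after each array's median and each gene's own mean were subtracted, over 10850 genes kept in both fractions. The distance was taken over 4 arrays only, so it describes these arrays. The closest were ATP5MC1 (distance 0.45), a subunit of mitochondrial ATP synthase, and RNU5D-1 (0.49), a U5 small nuclear RNA. NDUFAF4 (0.49), an assembly factor of respiratory complex I, TSEN15 (0.50), a subunit of the tRNA splicing endonuclease, and CCL2 (0.62), a chemokine, came next. All 5 were called lower in both fractions, with log2 fold changes between -2.58 and -1.73 in total RNA and between -2.25 and -1.59 in ER-RNA. Strong falls follow from the way these genes were picked, since the TAF9B profile is set largely by its own fall. No TFIID subunit was among them: the nearest other member, TAF13, lay at a distance of 1.72 with 486 genes closer, and TAF5 at 1.91 with 889 genes closer. The smaller falls of the other members, at most -0.91 in total RNA, enter this distance directly, so it is not separate evidence.

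**Figure D4:**
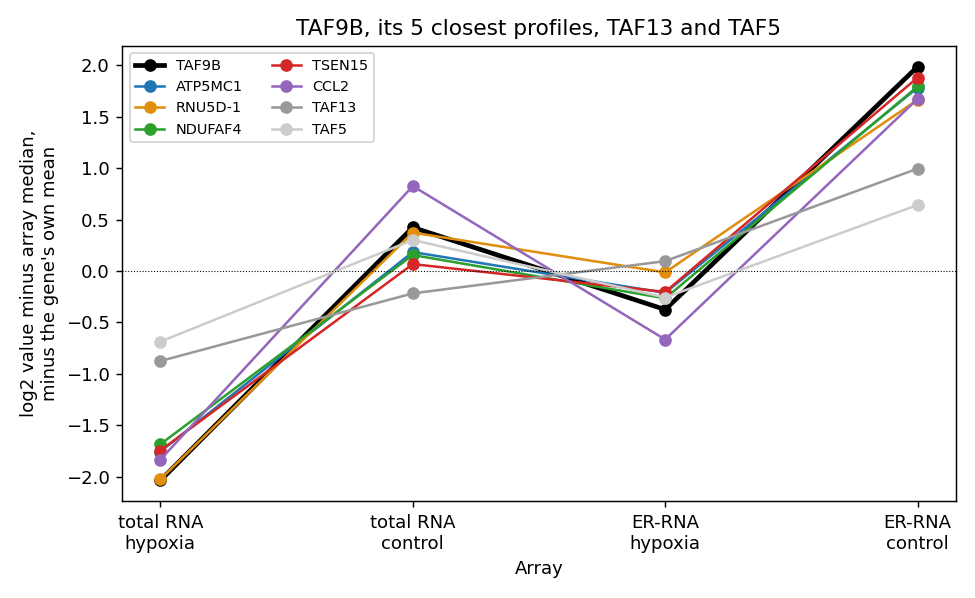
Log2 values on the 4 arrays, each minus the array median and the gene's own mean, for TAF9B (black), its 5 closest genes (colours) and TAF13 and TAF5 (grey). TAF9B and its 5 closest genes are lowest in hypoxic total RNA and highest in control ER-RNA, and the profiles of TAF13 and TAF5 span a smaller range.

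The fractions do not share a scale, since the array medians were 6.34 in hypoxia and 6.25 in control in ER-RNA, against 7.49 in hypoxia and 7.41 in control in total RNA. ER-RNA was therefore set against total RNA only after each array's median was subtracted. Whether the cycloheximide treatment reported for the ER fraction bears on this difference was not tested. The median difference of the 10 members was 1.01 in hypoxia and 1.12 in control on the log2 scale, where the median of all 18417 genes was 0.06 and 0.04. Quantile normalization over the 4 arrays left 0.88 in hypoxia and 0.63 in control. Transcripts of ER lumen and translocon proteins, which are translated at the ER, had medians of -0.65 and -0.74, so a high difference is not read here as a position at the ER.

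The members were spread widely on this measure. TAF9B was highest in both conditions, with ER-RNA above total RNA by 1.66 in hypoxia and 1.56 in control, although its level differed greatly between the conditions. TAF10 had 1.56 in hypoxia and 1.18 in control, TAF11 1.29 and 1.09, TAF12 1.27 and 1.18, TAF7 1.05 and 1.15, and TAF13 0.97 and 1.21. The middle of the range was held by TAF5, at 0.43 in hypoxia and 0.34 in control, and TAF4, at 0.28 and 0.16. Only TAF6 (-0.66 in hypoxia and -0.77 in control) and TAF2 (-0.81 and -0.36) had lower values in ER-RNA than in total RNA. Outside the members, TAF1 had -0.69 in hypoxia and -0.57 in control, and TAF3 had -0.86 and -1.03. TBP had 0.13 in hypoxia and 0.43 in control, and TAF8 had 0.07 and 0.38.

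Within the 10 members the subunits with lower numbers in their older symbols had the higher values. Such a number is read here as a rough mass of the protein in kilodaltons, which the symbols listed by RefSeq do not state. The lowest number was that of TAF13 (18) and the highest that of TAF2 (150). TAF4 and TAF6 each have several older symbols with different numbers, and the lowest was used. The number of TAF9B comes from the symbol TAFII31L, and whether it stands for the mass of TAF9B itself was not tested. Across the 10 members the difference of ER-RNA over total RNA ran against this number, with Pearson's r of -0.79 in hypoxia and -0.76 in control and Spearman's rho of -0.66 and -0.76. The 10 points are genes that share the same 4 arrays, so this is a description and no p-value is given. The 6 members with numbers of 55 or less (TAF13, TAF12, TAF11, TAF10, TAF9B and TAF7) all lay above the 4 with higher numbers (TAF6, TAF5, TAF4 and TAF2) in both conditions. Outside the members, TBP and TAF8 are small proteins. With the values above, they lay below all 6 members with numbers of 55 or less in both conditions. The length of the transcripts and of the probed regions was not tested.

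**Figure D5:**
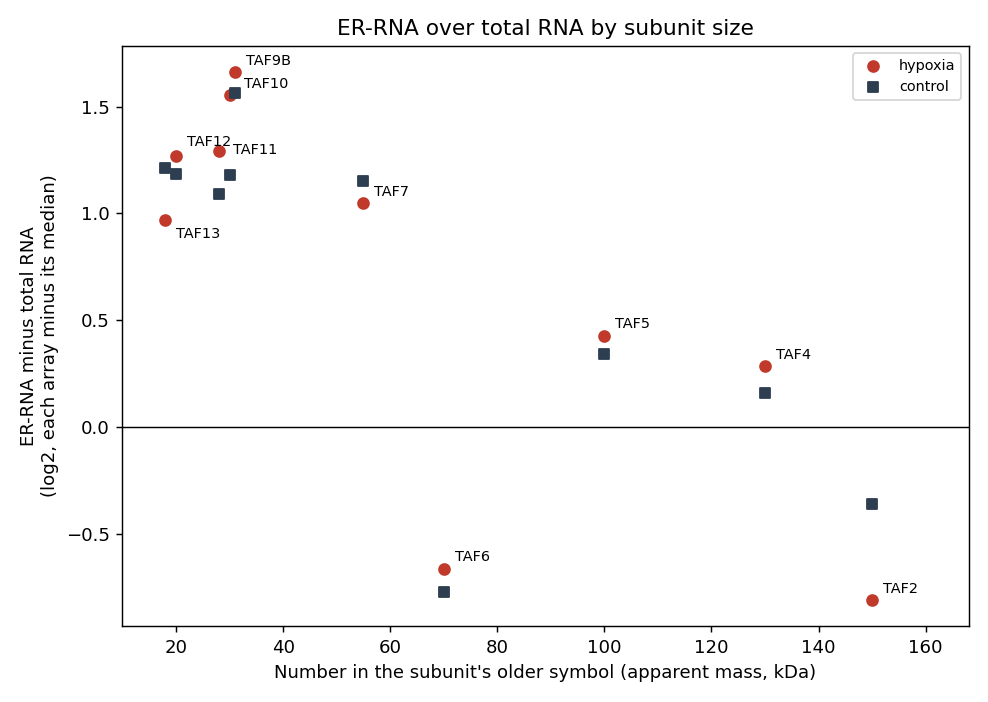
ER-RNA minus total RNA (log2, each array minus its median) of the 10 members against the number in the older symbol of the subunit, with circles for hypoxia and squares for control; labels stand beside the hypoxia points. Subunits with numbers up to 55 lie at 0.97 or higher, and TAF6 and TAF2 lie below 0 in both conditions.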

How the data were processed

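HT1080 RNA from hypoxia and control, as total RNA and ER-RNA, was hybridised to 4 Affymetrix Human Gene 1.0 ST arrays, each with RNA pooled from 5 experiments. The authors deposited RMA-normalized log2 values for 33297 probe sets. Partek 6.4 and RMA stand in the processing notes of the submitters; a joint run for all arrays is not given there. Gene names came from the platform annotation: 19460 probe sets name 1 gene, of which 19429 matched RefSeq (GRCh38.p14), 1754 name several and 12083 none. Of all probe sets 978 share all 4 values with another. The call rule follows the thresholds in the methods. Its SD came from loess with span 0.75 and degree 2, fitted to the hypoxia and control arrays of a pair together, which departs from the methods, where the model was made for each of these groups on its own. R 4.3.3, limma 3.58.1 and matrixStats 1.5.0 were used, and the rule was tested on simulated data, in which unchanged probe sets were called too, at a share not far below that of all genes here. The number of arrays limits the precision. The members, gene lists and the rule for named genes (every member and other TFIID subunit, and in each other list the highest, the lowest and those called in both fractions) were chosen with earlier results of these data known. Alternatives covered normalization, filter, SD, fold threshold and probe set. Promoter sequences are from RefSeq.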

Additional observations from a re-analysis of the deposited data

Results flagged for a closer look

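Of 103 genes of the TFIID members and the 6 other transcription lists kept in both fractions, 17 had hypoxia responses of opposite sign in the fractions, each on 1 array per condition, and the difference was not tested. None of the 17 was called in either fraction, and those given here are the 5 that the rule for named genes had picked. TAF8 had a log2 fold change of -0.27 in ER-RNA and 0.03 in total RNA, a difference of -0.31. BTAF1 had -0.12 in ER-RNA and 0.62 in total RNA (difference -0.74), and BDP1 had -0.15 in ER-RNA and 0.23 in total RNA (difference -0.38). GTF2F1 had 0.03 in ER-RNA and -0.21 in total RNA (difference 0.23), and BRF1 had 0.27 in ER-RNA and -0.01 in total RNA (difference 0.28). No member of the 10 ran opposite ways in the values as deposited. With array medians subtracted TAF7 did, at -0.08 in ER-RNA and 0.03 in total RNA. After loess within the pair TAF10 did, at 0.03 in ER-RNA and -0.41 in total RNA.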

How the results depend on the processing

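No paired analysis was possible because each group has 1 array. TAF9B kept its call in both fractions under all 12 alternatives. Its log2 fold changes could move only with the 3 normalizations, to between -2.46 and -2.30 in total RNA and between -2.36 and -1.92 in ER-RNA. The alternatives of probe set could change nothing for TAF9B, since its probe sets carry the same values. The count of members called lower, 2 in each fraction, came to 4 in each with the fold change alone, to 1 in each with a fold over 2 or the filter at the 75% quantile, to 1 in total RNA with both arrays above the 50% quantile, and to 1 in ER-RNA with the SD from the scaled MAD. The log2 fold changes of the other 9 members change only with the 3 normalizations, under which 52 of 54 values kept their sign and 2 reversed: TAF7 in ER-RNA with array medians subtracted (-0.078) and TAF10 in ER-RNA with loess within the pair (0.028). Over all 12 alternatives their calls were lost 6 times and gained 5 times. The other 9 members' median in ER-RNA moved to -0.13 with quantile normalization and -0.15 with loess within the pair. Quantile normalization moved the median of ER-RNA over total RNA to 0.88 in hypoxia and 0.63 in control. For the 6 other transcription lists together, with alternatives added after seeing the data, 3 genes called lower in total RNA became 5 with array medians subtracted, 24 with the fold change alone, 0 with the scaled MAD and 1 with a fold over 2. Their 10 in ER-RNA became 6 with quantile normalization, with loess within the pair or with the 75% filter, 38 with the fold change alone, 1 with the scaled MAD and 3 with a fold over 2. Where a call changed with the SD model or the thresholds, the rule's own construction sets the change; for the normalizations the cause was not tested. With 1 array per condition, no value has a replicate check.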
